A study of Saccharomyces cerevisiae with 60 samples.

Results

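The 10 genes described here encode the central part of the machinery that assembles iron-sulfur clusters in the mitochondria of budding yeast. They are NFS1, ISU1, ISU2, YFH1, SSQ1, JAC1, GRX5, ISA1, ISA2 and IBA57, taken as a named list, and each symbol was matched to its locus tag in the R64 annotation and so to its counts. All 10 were found among the 7126 features counted, and all 10 were among the 6070 genes that passed the filter on low counts.

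Poly(A) RNA was sequenced in 60 libraries that fall into 20 groups of 3, from 4 strain states in each of 5 heat conditions. The yeast was W303 in every case, with Hsf1, the activator of chaperone genes, fused for anchor-away, so that rapamycin takes it out of the nucleus. Cells of the tagged strain given DMSO are the wild type of the labels, and cells of that strain given rapamycin in DMSO before heat (-hsf1 in the labels) are called Hsf1-depleted. The msn2Δ/msn4Δ strain, which lacks both related activators of the general stress response, was given DMSO (called MSN-deleted) or rapamycin in DMSO (-hsf1/msn2Δ/msn4Δ, called double loss). Samples of the 4 states were taken at 25 °C without heat, and after 10 or 30 min at 37 or 42 °C. Rapamycin was given in every group without nuclear Hsf1 and in no other group, so the drug and the depletion cannot be told apart. Nothing in the labels says that replicates were grown separately, and p-values therefore measure the spread between these libraries.

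Iron-sulfur clusters are built on a scaffold protein from iron and from sulfur that a desulfurase releases from cysteine. A dedicated Hsp70 and its J-protein partner then hand the cluster to a glutaredoxin and to late-acting proteins, which convert and insert it. The pathway is essential in yeast, serves enzymes of the citric acid cycle, of respiration and of lipoate and amino acid synthesis, and feeds the cytosolic assembly machinery and the sensing of iron.

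Library totals lay between 3848210 and 10142858 counts, with a median of 5938357. Levels are given as CPM, reads per gene relative to the TMM-scaled size of each library. The limit that a count of 0 allows lay at 0.296 to 0.78 CPM, for counting error only, and every one of the 10 genes had at least 30 counts in each library. MSN2 and MSN4 reached at most 0.33 and 1.49 CPM in the deleted strain, against at least 99.3 and 88 CPM in the other strain. HSF1 mRNA lay between 62.7 and 581 CPM, but depletion acts on the protein and these counts do not test it. The table names place the libraries in 6 sets of 10, with 1 library of each group of a background in each set, so a difference between MSN backgrounds cannot be told apart from a difference between sets. In RNA from whole cultures, fewer cells of a kind and less RNA per cell cannot be told apart.

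At 25 °C in wild type, levels per kilobase of gene spanned from GRX5 at 313 ± 45.9 CPM per kb (SD, n = 3) to SSQ1 at 11.9 ± 1.03 CPM per kb. In between came ISU1 (202 CPM per kb), ISU2 (157), NFS1 (140), ISA1 (112), ISA2 (105), JAC1 (50.2), YFH1 (44.6) and IBA57 (23.2), all as means of 3 libraries. The libraries of ISU2 and NFS1 overlapped on this scale, as did those of NFS1 and ISA1, of ISA1 and ISA2, and of JAC1 and YFH1. None of the 10 genes was called between strain states at 25 °C in any of the 5 comparisons by edgeR's quasi-likelihood test, in which 0.198%, 0.115%, 0.494%, 0.329% and 0.264% of all genes were called. Differences there ran from -0.40 (log2) for SSQ1 to 0.56 for ISU1, the unadjusted p was under 0.05 in 2 of the 50 tests, and 0 were called by DESeq2.

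**Figure D1:**
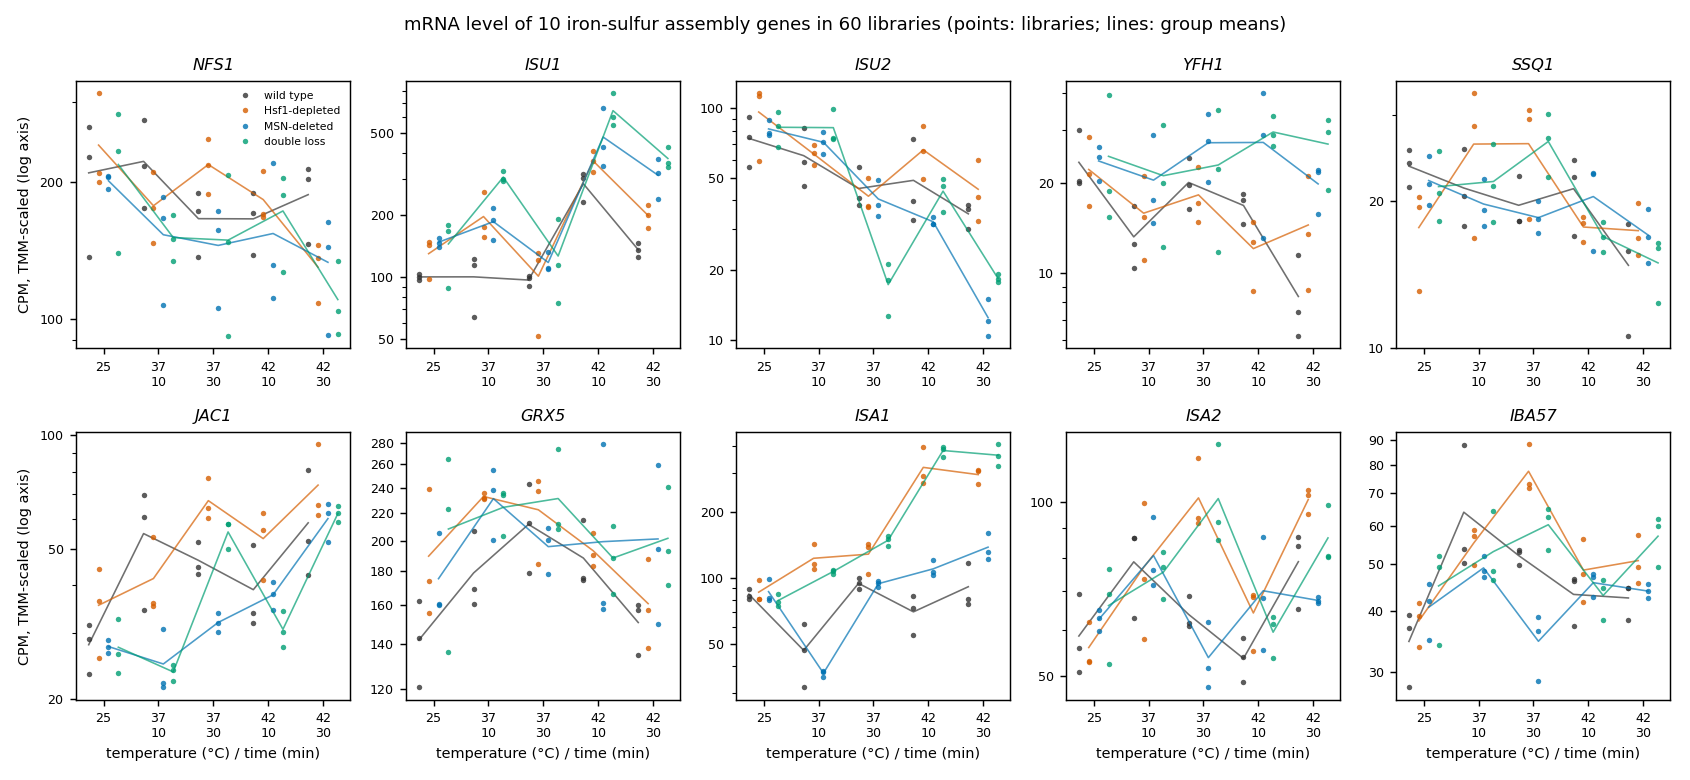
mRNA level of each of the 10 assembly genes, in CPM scaled by TMM on a log axis, against temperature and time of heat. Points are single libraries, lines join means of 3, and colours mark the 4 strain states. ISA1 at 42 °C separated the states given rapamycin (269 to 406 CPM) from the others (55.1 to 161 CPM), ISU1 rose at 42 °C for 10 min in every state, and ISU2 was lowest in the MSN-deleted state at 42 °C for 30 min (10.4 to 15 CPM).

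The question asked of heat was which genes differed from 25 °C in the same state. A gene is called here if its log2 fold change is 1 or more in either direction and its p, adjusted by Benjamini-Hochberg over all genes, is under 0.05, and "rose" and "fell" are used only for called genes. Over the 16 heat comparisons, 17 of 160 tests of the 10 genes were called higher and 10 lower. That is 16.9% of their tests, whereas 37.4% of the tests of all genes were called. No test of this difference in shares was made.

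In wild type, none of the 10 genes was called at 37 °C for 10 min, when 43.2% of all genes were, and none at 37 °C for 30 min, when 27.5% were. With an unadjusted p under 0.05 there were 5 and 4 of them, and DESeq2 called 1 (JAC1, 0.98 in edgeR) and 0. At 42 °C for 10 min 1 was called (41.3% of all genes), which was ISU1, and at 42 °C for 30 min 3 were called (59.7%), with JAC1 higher and ISU2 and YFH1 lower. In Hsf1-depleted cells the counts over the same conditions were 0, 2, 2 and 3, with backgrounds of 31.3%, 47.9%, 39.8% and 57%. In MSN-deleted cells they were 1, 1, 2 and 3, with backgrounds of 21.2%, 15.7%, 33.2% and 49.5%. In double loss they were 1, 2, 2 and 4, with backgrounds of 13.2%, 37.8%, 30.7% and 50.1%. In the 1 condition with 0 calls in Hsf1-depleted cells, the unadjusted p was under 0.05 for 6 genes, and 0 were called by DESeq2. The median of the 10 log2 fold changes stayed between -0.22 and 0.40 in all 16 comparisons, beside -0.05 to 0.09 for all genes. ISA2, NFS1, GRX5 and SSQ1 were called in none of the 73 comparisons made in all, by edgeR or by DESeq2, with an unadjusted p under 0.05 in 21, 7, 4 and 11 of them.

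**Figure D2:**
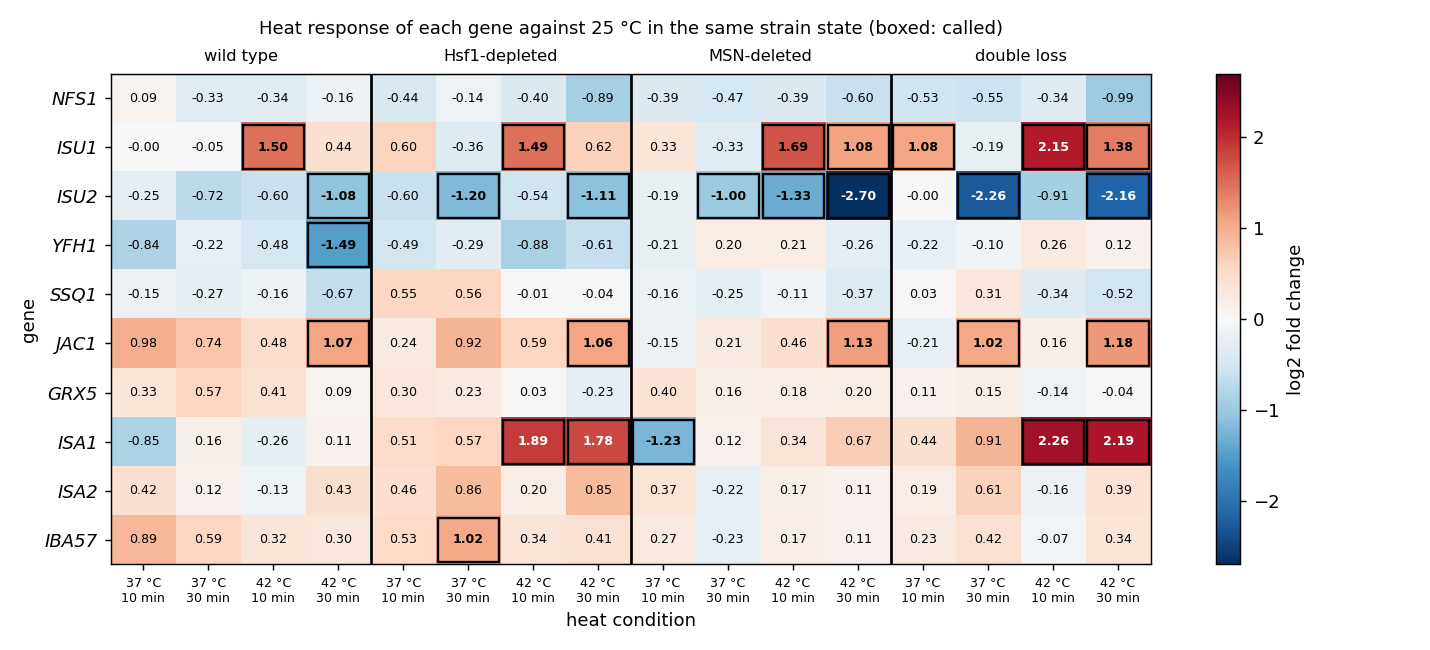
Log2 fold change of each assembly gene against 25 °C in the same strain state, with genes in order of their role from top to bottom and 4 heat conditions per state. Boxes mark called values. The calls fall on ISU1, ISU2, JAC1 and ISA1 in most columns, with 1 call each for YFH1 (-1.49) and IBA57 (1.02).

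ISA1 showed the widest range of the 10 genes, with group means from 37.0 CPM in MSN-deleted cells at 37 °C for 10 min to 381 CPM in double loss at 42 °C for 10 min, a ratio of 10.3. ISA1 encodes one of a pair of related proteins that, with Iba57, act late in the pathway to form clusters for aconitase-type and lipoate-type enzymes. The gene lies on the plus strand of chromosome XII at 87403 to 88155 (R64), overlaps no other counted feature, and none of its 50-base windows occurs elsewhere in the genome. Its upstream region is shown here because no match to any of the heat, stress or iron motifs described further on was found in the 300 bases before its coding start, and so none of its letters is in capitals. The first 200 of these bases, chrXII:87103-87302 on the plus strand, read as follows.
ISA1 upstream: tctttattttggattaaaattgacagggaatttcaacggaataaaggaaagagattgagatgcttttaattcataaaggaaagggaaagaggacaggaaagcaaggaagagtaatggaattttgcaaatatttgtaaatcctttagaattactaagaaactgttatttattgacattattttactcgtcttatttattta

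In wild type ISA1 stood at 80.9, 83.2 and 89.9 CPM at 25 °C, and at 72.9, 55.1 and 83.1 CPM after 10 min at 42 °C. In Hsf1-depleted cells it stood at 80.3, 80.7 and 98.6 CPM at 25 °C and at 394, 292 and 272 CPM after 10 min at 42 °C. All 3 heated libraries of the Hsf1-depleted state thus lay above all of its 25 °C libraries and above all wild-type libraries, while the wild-type groups overlapped. After 30 min at 42 °C wild type gave 118, 80.1 and 76.7 CPM and Hsf1-depleted cells gave 308, 311 and 269 CPM.

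ISA1 therefore rose at 42 °C in Hsf1-depleted cells, by 1.89 ± 0.18 (log2, standard error) at 10 min and 1.78 ± 0.18 at 30 min (edgeR, adjusted p = 4.28e-12 and 6.25e-12). In wild type the same responses were -0.26 and 0.11 and were not called. In double loss the libraries stood at 78.4, 84.9 and 74.8 CPM at 25 °C, at 358, 397 and 389 CPM after 10 min at 42 °C, and at 406, 360 and 323 CPM after 30 min. The responses of double loss were 2.26 ± 0.18 and 2.19 ± 0.18 (edgeR, adjusted p = 4.62e-14 and 2.08e-14). MSN-deleted cells reached 106, 122 and 103 CPM at 10 min and 161, 132 and 122 CPM at 30 min, with responses of 0.34 and 0.67 that were not called. The high libraries of ISA1 at 42 °C were thus the 12 of both states given rapamycin, and they did not overlap the 12 of both states given DMSO.

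The differences between these heat responses were tested as interaction terms. At 42 °C for 10 min the ISA1 response of Hsf1-depleted cells exceeded that of wild type by 2.15 ± 0.25 (edgeR, adjusted p = 2.08e-08), in a comparison in which 1 of the 10 genes and 1.12% of all genes were called. Only 4 genes were called higher in that comparison, and ISA1 ranked 1 among them both by size and by p. At 42 °C for 30 min the excess was 1.66 ± 0.25 (edgeR, adjusted p = 5.86e-06, 1 of the 10 genes and 3.26% of all genes called), and ISA1 ranked 1 by p and 15 by size among 40 genes called higher. Double loss exceeded MSN-deleted cells by 1.92 ± 0.25 and 1.52 ± 0.25 at 10 and 30 min (edgeR, adjusted p = 2e-07 and 2.36e-05, with 1.55% and 3.39% of all genes called), again with ISA1 as the 1 gene of the 10. None of these ISA1 calls at 42 °C ended when any 1 library was left out.

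The levels themselves gave the same order. ISA1 was higher in Hsf1-depleted cells than in wild type by 2.18 ± 0.18 at 42 °C for 10 min (edgeR, adjusted p = 3.46e-13, rank 1 by p of 13 genes called higher) and by 1.69 ± 0.18 at 30 min (adjusted p = 4.16e-10, rank 1 of 84). It was higher in double loss than in MSN-deleted cells by 1.79 ± 0.18 and 1.39 ± 0.18 (edgeR, adjusted p = 6.43e-11 and 4.62e-08), with ranks of 1 of 22 and 3 of 140 by p. By size of change ISA1 ranked lower, at 2 of 13, 20 of 84, 6 of 22 and 63 of 140 in the same order. ISA1 was the only 1 of the 10 genes called in each of these 4 comparisons, in which 1.71%, 4.38%, 2.44% and 6.28% of all genes were called. Between double loss and Hsf1-depleted cells ISA1 was not called at either time, with differences of 0.25 and 0.29.

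At 37 °C for 10 min ISA1 again stood apart in the states given rapamycin. Wild type gave 31.9, 61.8 and 47.4 CPM and MSN-deleted cells gave 35.5, 38 and 37.5 CPM, all below their 25 °C libraries. ISA1 fell in MSN-deleted cells by -1.23 ± 0.18 (log2; edgeR, adjusted p = 2.7e-07), and its value in wild type was -0.85, short of the fold threshold. Without MSN-deleted 25 °C replicate 2 the value in MSN-deleted cells was -0.98 and the call ended. Hsf1-depleted cells gave 117, 143 and 110 CPM and double loss 105, 109 and 108 CPM, all above every library of the states given DMSO.

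At 37 °C for 10 min the ISA1 response of Hsf1-depleted cells exceeded that of wild type by 1.36 ± 0.25 (edgeR, adjusted p = 0.000449, 3.23% of all genes called), and that of double loss exceeded MSN-deleted cells by 1.67 ± 0.25 (adjusted p = 4.63e-06, 4.42%). In both comparisons ISA1 was the 1 gene of the 10 that was called. The first of these calls ended when the compared libraries were fitted alone (1.34, adjusted p = 0.197), as did the difference in level of 1.39 between Hsf1-depleted cells and wild type (1.30, adjusted p = 0.103). Double loss exceeded wild type by 1.29 ± 0.25 in response and by 1.19 ± 0.18 in level, and without wild-type 37 °C 10 min replicate 1 these became 0.99 and 0.85 and were no longer called. At 37 °C for 30 min wild type gave 89.4, 99.9 and 95.3 CPM and Hsf1-depleted cells 143, 105 and 139 CPM, a difference of 0.44 that was not called.

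ISA1 stands in a row with TPO1 upstream and HSP104 downstream on the same strand, with gaps of 838 and 467 bp. These neighbours were looked at after the values of ISA1 were seen. HSP104 encodes a disaggregase and is a classical target of both Hsf1 and the Msn factors, and TPO1 encodes a polyamine transporter. HSP104 rose in wild type at 42 °C for 10 min from a mean of 110 to 10854 CPM, in Hsf1-depleted cells from 38.5 to 1268 CPM, and in double loss it went from 39.1 to 70.6 CPM (log2 6.62, 5.04 and 0.85, the last not called). HSP104 was lower in Hsf1-depleted cells than in wild type by -2.53 at 37 °C for 10 min, by -3.10 at 42 °C for 10 min and by -2.85 at 42 °C for 30 min, the conditions in which ISA1 was called higher. At 37 °C for 30 min, where ISA1 was not called, HSP104 differed by 0.04. At 25 °C HSP104 was lower by -1.52 in the same contrast, where ISA1 differed by 0.03, and double loss had lower HSP104 than MSN-deleted cells at 37 °C for 30 min by -3.43, where ISA1 differed by 0.66 and was not called. TPO1 was not called between Hsf1-depleted cells and wild type at any of the 5 conditions. Any part of HSP104 in the values of ISA1 was not tested.

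**Figure D3:**
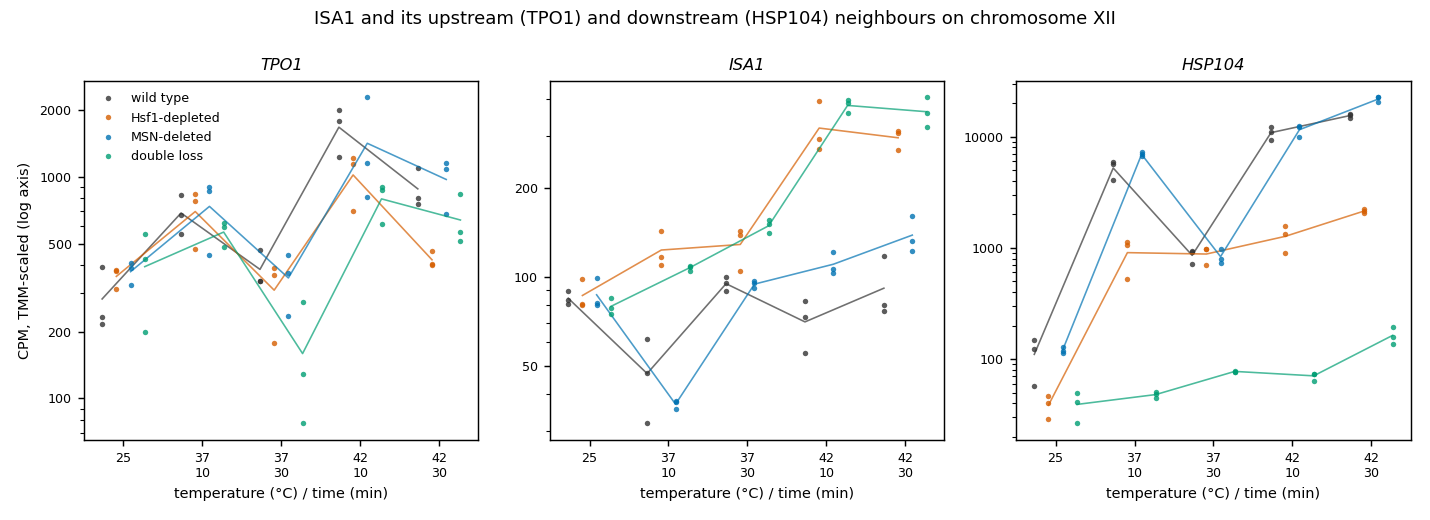
Levels of TPO1, ISA1 and HSP104, neighbours in this order on one strand of chromosome XII, in CPM scaled by TMM on log axes that differ between panels. Points are single libraries, lines join means of 3. At 42 °C the states given rapamycin had the lower HSP104 level (means of 70.6 to 2143 CPM) and the higher ISA1 level (means of 296 to 381 CPM). Between these states ISA1 was not called at either time.

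HSP104 differs from ISA1 also in its upstream sequence. The 300 bases before the coding start of HSP104 hold 1 match to the core of the heat shock element (TTCNNGAA, both strands) and 3 to the stress response element (AGGGG, both strands), and none of the 10 assembly genes holds a heat shock element match there. Such a match is found in 13.2% of 5671 windows of this kind in the genome. The match of HSP104 lies within chrXII:88323-88352 on the plus strand, between the end of ISA1 and the start of HSP104, and is in capitals here.
HSP104 upstream: ccagaattTTCTAGAAgggttattaattac

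ISU1 and ISU2 encode near-equivalent scaffold proteins on which the cluster is first assembled. ISU1 calls among the heat responses were all higher and ISU2 calls all lower, but both genes were called in the same comparison in only 3 of the 16, MSN-deleted cells at 42 °C for 10 and 30 min and double loss at 42 °C for 30 min. At 37 °C for 30 min ISU1 was not called in any state, with values of -0.05 to -0.36. In wild type ISU1 rose at 42 °C for 10 min from 100, 96.9 and 104 CPM to 232, 316 and 303 CPM, all 3 heated libraries above all at 25 °C. The change was 1.50 ± 0.29 (log2; edgeR, adjusted p = 1.77e-05). After 30 min at 42 °C wild-type ISU1 stood at 135, 125 and 147 CPM, and it was lower than at 10 min by -1.06. That last call was -0.92 and not called with DESeq2 or with its size factors, and -0.96 with no filter, and it ended without either of wild-type 42 °C 30 min replicates 1 and 2 (-0.97 and -0.90) or of 42 °C 10 min replicates 2 and 3 (-0.86 and -0.90).

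The rise of ISU1 at 42 °C for 10 min was also called in Hsf1-depleted cells (1.49 ± 0.29), in MSN-deleted cells (1.69 ± 0.29) and in double loss (2.15 ± 0.29; edgeR, adjusted p = 2.08e-05, 3.2e-06 and 4.32e-08). It reached 661, 345 and 426 CPM in MSN-deleted cells and 779, 596 and 548 CPM in double loss, from 141, 147 and 156 and from 167, 88.9 and 179 CPM at 25 °C. No 1 library ended any of these 4 calls. None of the 3 differences from the wild-type response at 42 °C for 10 min was called for ISU1.

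After 30 min at 42 °C ISU1 was still raised in MSN-deleted cells, at 376, 320 and 241 CPM (1.08 ± 0.28; edgeR, adjusted p = 0.000922; 0.88 and not called with library totals alone), and in double loss, at 343, 359 and 427 CPM (1.38 ± 0.28, adjusted p = 4.25e-05). The wild-type response at this condition was 0.44, and the ISU1 response of neither state was called as different from it. Mean ISU1 at 25 °C was 148 CPM in MSN-deleted cells and 145 CPM in double loss, against 100 CPM in wild type, differences that were not called. After 30 min at 42 °C every library of MSN-deleted cells and double loss lay above the wild-type libraries of that condition. The differences in level from wild type were 1.20 ± 0.28 for MSN-deleted cells and 1.47 ± 0.28 for double loss (edgeR, adjusted p = 0.000606 and 3.22e-05, with 31.8% and 40.9% of all genes and 3 of the 10 in each called), of which the first fell to 0.9964 and out of the called set without MSN-deleted 42 °C 30 min replicate 1. With double loss ISU1 also rose at 37 °C for 10 min, to 291, 299 and 326 CPM (1.08 ± 0.28, adjusted p = 0.00385), and without double-loss 25 °C replicate 2, the low library at 88.9 CPM, this was 0.86 and not called. The excess of this response over that of wild type, 1.08 ± 0.40 (edgeR, adjusted p = 0.0376), was lost without any of 9 of the 12 libraries compared, with values of 0.76 to 1.12, while the difference in level, 1.61 ± 0.29, was not. The excess also ended in edgeR with the size factors of DESeq2 (adjusted p = 0.0581), with no filter (0.0527) and with the compared libraries fitted alone (0.0952). Without the 5 libraries farthest from their groups it was 0.52 and not called. The difference in level between double loss and wild type at 42 °C for 10 min, 1.18 (16% of all genes and 2 of the 10 called), was 0.92 without wild-type 42 °C 10 min replicate 1 and 0.91 without double-loss 42 °C 10 min replicate 1, and then not called.

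ISU2 fell with heat in every strain state. In wild type it went from 75.1, 55.7 and 91.4 CPM to 38, 36.9 and 30.1 CPM after 30 min at 42 °C (-1.08 ± 0.26, log2; edgeR, adjusted p = 0.000263). This call is at the threshold. It was -0.94 with DESeq2 or with its size factors and -0.99 with no filter, and it ended without wild-type 25 °C replicate 1 (-0.98) or 3 (-0.84) or without 42 °C 30 min replicate 3 (-0.88). In MSN-deleted cells the same condition took ISU2 from 76.9, 78.3 and 88.8 CPM to 10.4, 12.1 and 15 CPM, and in double loss from 83.3, 68.3 and 96.4 CPM to 18.3, 17.8 and 19.3 CPM. Both falls were larger, at -2.70 ± 0.28 and -2.16 ± 0.27 (edgeR, adjusted p = 8.69e-12 and 1.25e-09), and no 1 library ended either call. The groups did not overlap in either state. In level ISU2 was then lower than in wild type by -1.48 in MSN-deleted cells, and lower in double loss than in Hsf1-depleted cells by -1.27 (edgeR, adjusted p = 2.19e-05 and 0.000103, with 31.8% and 33.3% of all genes called).

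The ISU2 response at 42 °C for 30 min was lower than that of wild type by -1.62 ± 0.37 in MSN-deleted cells (edgeR, adjusted p = 0.000985; 1 of the 10 genes and 23.7% of all genes called). In double loss the difference was -1.08 ± 0.36 (adjusted p = 0.0174; 3 of the 10 genes and 32% of all genes called), and without double-loss 25 °C replicate 3 or wild-type 25 °C replicate 2 it was -0.99 or -0.94 and not called. Scaled by library totals alone it was -0.01. At 37 °C for 30 min ISU2 fell to 18.1, 12.7 and 21.2 CPM in double loss (-2.26 ± 0.27; edgeR, adjusted p = 7.81e-10), against 38.3, 55.9 and 40.8 CPM in wild type (-0.72, not called). This response was lower than in wild type by -1.54 ± 0.36 (edgeR, adjusted p = 0.000967; 1 of the 10 genes and 26.3% of all genes called) and lower than in MSN-deleted cells by -1.25 ± 0.36 (adjusted p = 0.00952; 1 of 10 and 17.8%). Scaled by library totals these were -1.01 and -1.06 and no longer called, and the second also ended without double-loss 37 °C 30 min replicate 2 (-0.99), MSN-deleted 37 °C 30 min replicate 2 (-1.03) or double-loss 25 °C replicate 3 (-1.05).

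In Hsf1-depleted cells ISU2 fell at 37 °C for 30 min (-1.20 ± 0.26; edgeR, adjusted p = 8.13e-05) and at 42 °C for 30 min (-1.11 ± 0.26, adjusted p = 0.000197), in the second case with overlapping groups. The first ended without Hsf1-depleted 25 °C replicate 3 (-0.97). The second ended with library totals alone (-0.86), without 25 °C replicate 1 (-0.91) or 3 (-0.84) and without 42 °C 30 min replicate 1 (-0.82) or 3 (-0.98). In MSN-deleted cells ISU2 fell at 42 °C for 10 min (-1.33 ± 0.26, adjusted p = 3.23e-05) and, at the threshold, at 37 °C for 30 min (-1.004 ± 0.26, adjusted p = 0.00249). The latter was lost with library totals alone (-0.81), with the replicate number as a block (-0.99), with the compared libraries fitted alone (-0.97), and without MSN-deleted 37 °C 30 min replicate 1 (-0.94) or 3 (-0.88) or 25 °C replicate 3 (-0.93).

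The makeup of the scaffold pair differed between heat conditions. Per kilobase, ISU1 made up 56.6% ± 5.20 (SD, n = 3) of the sum of ISU1 and ISU2 in wild type at 25 °C and 84.9% ± 4.69 after 10 min at 42 °C. In MSN-deleted cells it went from 63.2% ± 0.81 to 95.7% ± 1.72 after 30 min at 42 °C, and in double loss from 61.5% ± 5.49 to 95.0% ± 0.39. The summed level of the pair per kilobase was 653 ± 132 and 794 ± 90.7 CPM in these heated groups, against 469 ± 28.7 and 467 ± 127 CPM at 25 °C. In wild type at 42 °C for 30 min the share was 78.5% ± 3.23. In double loss at 37 °C for 30 min it was 86.6% ± 2.51, where ISU2 fell and ISU1 was at -0.19 and not called.

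ISU1 lies at chrXVI:297553-298050 on the plus strand and ISU2 at chrXV:761614-762084 on the minus strand (R64). Each overlaps another annotated feature on the other strand, YPL135C-A over 174 bases of ISU1 and YOR225W over 108 bases of ISU2, whose own counts came to 0.262% and 0.102% of those of ISU1 and ISU2. Whether the counting used the strand is not given in the sources used here, so reads from both strands cannot be told apart at these bases. Nor is it known whether reads at these bases were counted in full for ISU1 and ISU2, and levels per kilobase use the whole length of each gene. No 50-base window of either gene occurs elsewhere in the genome, the other scaffold gene included. The upstream windows of the pair are shown because their calls differ in direction, and the capitals mark a GCACCC match, the core of the element bound by the iron regulators Aft1 and Aft2, which ISU1 has and ISU2 has not. The first 200 of 300 bases before each coding start are chrXVI:297253-297452 (plus strand) and chrXV:762185-762384 (minus strand).
ISU1 upstream: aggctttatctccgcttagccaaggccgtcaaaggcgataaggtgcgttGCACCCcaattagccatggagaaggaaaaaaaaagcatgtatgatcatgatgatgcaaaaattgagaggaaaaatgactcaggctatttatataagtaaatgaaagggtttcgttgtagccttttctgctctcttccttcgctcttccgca
ISU2 upstream: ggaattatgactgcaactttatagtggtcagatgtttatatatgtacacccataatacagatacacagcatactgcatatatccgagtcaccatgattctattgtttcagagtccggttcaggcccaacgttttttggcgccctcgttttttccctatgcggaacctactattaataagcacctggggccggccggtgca

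GCACCC was searched on both strands of the 300 bases before each coding start, and it was found in 3 of the 10 assembly genes and in 4.16% of 5671 such windows. The other matches belong to NFS1 and YFH1. They lie within chrIII:94472-94501 (minus strand) and chrIV:245645-245674 (plus strand, where the match is read as GGGTGC on the printed strand), in capitals here.
NFS1 upstream: caatactattatGCACCCtattacccgcaa
YFH1 upstream: aacgtagatcatGGGTGCttgatttagaga

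The 3 genes with this match did not share a heat response, since ISU1 rose, YFH1 fell in 1 comparison and NFS1 was never called. A match is a description of letters and not of binding.

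NFS1, the cysteine desulfurase that supplies the sulfur, had heat responses between -0.99 and 0.09 (log2), with the lowest in double loss at 42 °C for 30 min, where it went from 282, 140 and 234 CPM to 92.7, 134 and 104 CPM. The adjusted p was under 0.05 in 2 of the 16 heat responses, but the fold stayed short of the threshold. The interval of that lowest response ran from -1.56 to -0.42 (95%), so a change beyond the threshold cannot be set aside for it.

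YFH1 encodes frataxin, which promotes the sulfur transfer on the scaffold. It was the assembly gene with the fewest counts, down to 30 in 1 library. In wild type YFH1 stood at 20.3, 20 and 29.9 CPM at 25 °C and at 11.5, 6.18 and 7.41 CPM after 30 min at 42 °C, without overlap. This fall, -1.49 ± 0.39 (edgeR, adjusted p = 0.000796), was the only YFH1 call among the heat responses. MSN-deleted cells at 42 °C for 30 min gave 22.1, 15.8 and 21.7 CPM and double loss gave 32.3, 19 and 29.6 CPM, both groups above wild type. The differences in level were 1.25 ± 0.40 and 1.69 ± 0.39 (edgeR, adjusted p = 0.00904 and 0.000362). The first was 0.9991 (adjusted p = 0.0773) without wild-type 42 °C 30 min replicate 2 and 1.10 (adjusted p = 0.0527) without replicate 3.

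The difference in YFH1 response between MSN-deleted cells and wild type at 42 °C for 30 min was not called. The YFH1 response of double loss exceeded that of wild type at 42 °C for 30 min by 1.62 ± 0.54 (edgeR, adjusted p = 0.0154). It was no longer called without double-loss 25 °C replicate 1, at 1.33 (adjusted p = 0.0703). The same held without double-loss 25 °C replicate 3 (1.40), wild-type 42 °C 30 min replicate 2 (1.38) or wild-type 25 °C replicate 3 (1.31). At 42 °C for 10 min double loss was higher than Hsf1-depleted cells by 1.28 ± 0.38 (adjusted p = 0.00742), and without Hsf1-depleted 42 °C 10 min replicate 2, at 8.75 CPM, this was 1.03 (adjusted p = 0.0787). In that comparison 22.2% of all genes were called, and YFH1 was the 1 gene of the 10. The spread of YFH1 between libraries was the widest of the 10 genes in these fits, with standard errors of the heat responses of 0.36 to 0.39, against 0.18 for ISA1.

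SSQ1 and JAC1 encode the specialised Hsp70 and J-protein that release the cluster from the scaffold. SSQ1 had the lowest level per kilobase of the 10. Its heat responses lay between -0.67 in wild type at 42 °C for 30 min (10.6, 17.9 and 15.8 CPM, from 25.4, 21.4 and 24 CPM) and 0.56 in Hsf1-depleted cells at 37 °C for 30 min. The related abundant Hsp70 of the matrix, SSC1, which also imports proteins, rose at 42 °C for 30 min in wild type by 2.34 ± 0.27 and in MSN-deleted cells by 2.02 ± 0.27, and was not called in Hsf1-depleted cells (-0.52) or double loss (-0.77). The SSC1 response was lower in Hsf1-depleted cells than in wild type by -2.86 ± 0.37 (edgeR, adjusted p = 1.59e-07), in a comparison in which SSQ1 was not called.

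JAC1 rose after 30 min at 42 °C in all 4 states, by 1.07 ± 0.23 in wild type, 1.06 ± 0.23 in Hsf1-depleted cells, 1.13 ± 0.23 in MSN-deleted cells and 1.18 ± 0.23 in double loss (edgeR, adjusted p = 5.82e-05, 7.05e-05, 3.41e-05 and 1.56e-05). Wild type went from 23.3, 28.8 and 31.4 CPM to 81, 52.3 and 42.6 CPM, and double loss from 32.5, 26.3 and 23.4 CPM to 59.1, 64.8 and 62.1 CPM. The groups were apart in every state. The wild-type call ended without 42 °C 30 min replicate 1, its high library at 81 CPM (0.86), and the Hsf1-depleted call without 25 °C replicate 2 (0.95) or 42 °C 30 min replicate 2 (0.93). Scaled by library totals the wild-type value was 0.50 (adjusted p = 0.119) and the MSN-deleted value 0.97, neither of them called. JAC1 also rose at 37 °C for 30 min in double loss, to 49.9, 58.1 and 58.3 CPM (1.02 ± 0.23, adjusted p = 0.000191), and without double-loss 25 °C replicate 3 that value was 0.9986.

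JAC1 differed from wild type at 37 °C for 10 min in both states without MSN2 and MSN4. Wild type gave 34.3, 69.7 and 60.7 CPM, MSN-deleted cells 21.5, 22.1 and 30.7 CPM and double loss 22.4, 24.6 and 23.8 CPM. Hsf1-depleted cells gave 35.3, 53.9 and 36 CPM, above double loss without overlap, and the difference between these 2 states, -0.83 (edgeR, adjusted p = 0.00589), was short of the fold threshold and not called. Both states without MSN2 and MSN4 lay below all wild-type libraries, by -1.15 ± 0.23 and -1.22 ± 0.23 (edgeR, adjusted p = 0.000119 and 2.94e-05), in comparisons in which 1 and 3 of the 10 genes and 24% and 31.2% of all genes were called. The JAC1 responses differed from that of wild type by -1.13 ± 0.32 and -1.19 ± 0.32 (edgeR, adjusted p = 0.0135 and 0.00448; 1 and 3 of the 10 genes and 13.4% and 24.1% of all genes called). In Hsf1-depleted cells, which keep MSN2 and MSN4, the JAC1 response was 0.24, beside 0.98 in wild type, -0.15 in MSN-deleted cells and -0.21 in double loss. None of these was called by edgeR, nor was the response difference between Hsf1-depleted cells and wild type.

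The called JAC1 differences of MSN-deleted cells and double loss from wild type depended on the scaling. With library totals alone the differences in level were -0.59 and -0.52 and those in response -0.46 and -0.39, none of them called. Without wild-type 37 °C 10 min replicate 2, its highest library, the MSN-deleted level difference was -0.93 and not called. The MSN-deleted response difference ended also without any of 4 further libraries, namely MSN-deleted 37 °C 10 min replicates 1 (-0.96) and 2 (-0.99), wild-type 25 °C replicate 1 (-0.94) and wild-type 37 °C 10 min replicate 3 (-0.98), and was -0.85 without the same replicate 2.

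JAC1 is the only 1 of the 10 genes with a match to AGGGG, the stress response element bound by Msn2 and Msn4, in the 300 bases before its coding start, where 22.4% of 5671 windows hold one on either strand. The match, read as CCCCT on the printed strand, lies within chrVII:459920-459949 on the minus strand, and it falls inside the coding sequence of the neighbour ATE1, which covers 111 bases of the window. It is in capitals here.
JAC1 upstream: atccatgttgccCCCCTtattaccgtgaca

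GRX5, the monothiol glutaredoxin that carries the cluster onward, varied least by group mean. Its group means spanned from 142 CPM in wild type at 25 °C to 233 CPM in Hsf1-depleted cells at 37 °C for 10 min, a ratio of 1.64 and the smallest of the 10 genes. Its heat responses lay between -0.23 and 0.57 (log2). In wild type it stood at 121, 162 and 143 CPM at 25 °C and at 157, 135 and 160 CPM after 30 min at 42 °C, with a difference of 0.09 and an interval from -0.34 to 0.51 (95%).

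ISA2, the partner of ISA1, did not follow it. In Hsf1-depleted cells ISA2 stood at 53, 52.8 and 61.9 CPM at 25 °C and at 68.4, 69 and 55.1 CPM after 10 min at 42 °C, overlapping groups with a response of 0.20 (95% interval -0.17 to 0.57), where ISA1 gave 1.89. Its largest heat responses were 0.86 and 0.85 in Hsf1-depleted cells after 30 min at 37 and 42 °C. IBA57, which works with both, rose in 1 heat comparison, in Hsf1-depleted cells at 37 °C for 30 min, from 33.8, 39.1 and 41.6 CPM to 88.1, 73.1 and 71.6 CPM (1.02 ± 0.18; edgeR, adjusted p = 3.34e-06). That call was lost without Hsf1-depleted 37 °C 30 min replicate 1 (0.95) or 25 °C replicate 1 (0.98), and with library totals alone (0.93).

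**Figure D4:**
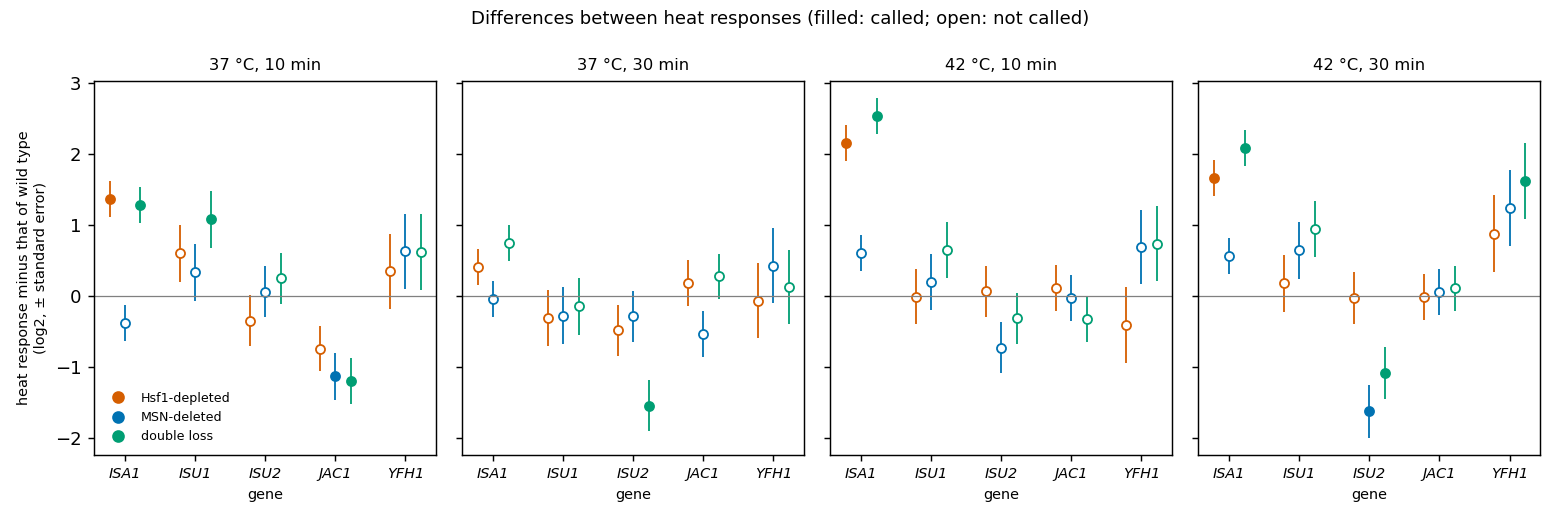
Heat response of 5 assembly genes in each altered state minus their heat response in wild type (log2, bars are standard errors), 1 panel per heat condition. Filled points were called and open points were not. The differences for ISA1 in Hsf1-depleted cells and double loss (1.29 to 2.53 where filled) stand apart from those in MSN-deleted cells. ISU2 and JAC1 are called in both MSN-deleted cells and double loss, and ISU1 and YFH1 in double loss alone.

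Over the 25 comparisons of strain states, 16 of 250 tests of the 10 genes were called higher and 7 lower, 9.2% of them beside 15.5% of the tests of all genes. With library totals alone the split was 42 higher and 2 lower. Over the 16 differences between heat responses, 11 of 160 tests were called higher and 6 lower, 10.6% beside 12.3% of all genes, and with library totals alone 23 higher and 1 lower. ISA1 made up 9 of the 16 higher level differences and 9 of the 11 higher response differences. Over the 16 comparisons of times and temperatures within a state, 14 tests were called higher and 9 lower, 14.4% beside 25.8% of all genes, and 7 of the 14 belonged to ISA1.

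Between Hsf1-depleted cells and wild type the number of the 10 genes called in level was 1 at 37 °C for 10 min (4.15% of all genes called), 0 at 37 °C for 30 min (28.7%), 1 at 42 °C for 10 min and 1 at 42 °C for 30 min, ISA1 each time. In the condition with 0 calls 4 of the 10 had an unadjusted p under 0.05 by edgeR and none was called by DESeq2. Between double loss and MSN-deleted cells the counts were 1 (ISA1, 6.8% of all genes), 1 (ISU2, 24.4%), 1 and 1 in the same order. The ISU2 difference of that comparison, -1.23, was -0.98 and not called without double-loss 37 °C 30 min replicate 2.

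Between MSN-deleted cells and wild type the counts were 1, 0 (3.92% of all genes), 0 (15.8%) and 3, and in the conditions with 0 calls 2 and 4 of the 10 had an unadjusted p under 0.05 by edgeR and none was called by DESeq2. Between double loss and wild type they were 3, 1 (ISU2, -1.38, with 36% of all genes called), 2 and 3. Between double loss and Hsf1-depleted cells they were 0 (14.4%), 1 (ISU2, -1.27, with 38.4%), 1 and 1. With library totals alone the ISU2 differences of double loss at 37 °C for 30 min were -0.98 from wild type and -0.68 from Hsf1-depleted cells, and that from Hsf1-depleted cells at 42 °C for 30 min was -0.84, none of them called. In heat response, none of the 10 genes was called between MSN-deleted cells and wild type at 37 °C for 30 min (0.264% of all genes called) or at 42 °C for 10 min (9.51%), with 1 gene each at an unadjusted p under 0.05 and none called by DESeq2. Hsf1-depleted cells and wild type also gave 0 at 37 °C for 30 min (22.7%), with 2 at an unadjusted p under 0.05 and none called by DESeq2.

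Double loss against wild type gave a called ISA1 response difference of 2.53 ± 0.25 at 42 °C for 10 min (edgeR, adjusted p = 1.02e-10), the 1 gene of the 10 in a comparison with 10.5% of all genes called, and of 2.08 ± 0.25 at 42 °C for 30 min (adjusted p = 9.28e-09).

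Within a state, 42 °C gave more ISA1 than 37 °C at 10 min in Hsf1-depleted cells (1.37), MSN-deleted cells (1.58) and double loss (1.83), with 16.6%, 23.2% and 16.9% of all genes called, and so it did at 30 min in Hsf1-depleted cells (1.20) and double loss (1.28), with 32.6% and 37.6%. ISU1 was likewise higher at 42 °C than at 37 °C for 10 min in wild type by 1.50 (22% of all genes called). It was also called higher in MSN-deleted cells and double loss, at 10 min (23.2% and 16.9%) and at 30 min (41.9% and 37.6%). The MSN-deleted difference at 10 min was 0.88 and not called without the 5 libraries farthest from their groups. ISU2 was lower after 30 than after 10 min at 42 °C in MSN-deleted cells by -1.37 and in double loss by -1.25 (23% and 23.6%). These comparisons share libraries with the heat responses and are no separate evidence.

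The other genes of the pathway were taken as lists chosen with earlier results of these data known. Each share of all genes set beside their counts is for both directions together. In wild type at 42 °C for 30 min, 1832 of the 6070 genes were called higher and 1789 lower. Of 11 other mitochondrial assembly genes, 2 rose and 6 fell in wild type at 42 °C for 30 min, when 59.7% of all genes were called, and the median was -1.30 beside -0.04 for all genes. The rises were those of SSC1 (2.34) and ARH1 (1.50), the ferredoxin reductase, and among the falls were MGE1 (-2.27), the exchange factor of the matrix Hsp70s, ATM1 (-2.27), the exporter towards the cytosol, and NFU1 (-2.13), a late carrier. In double loss at this condition 0 rose and 6 fell, with 50.1% of all genes called. YAH1, the ferredoxin, fell by -1.34 in wild type and -2.66 in Hsf1-depleted cells.

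Of 10 genes for cytosolic iron-sulfur assembly, none rose and 6 fell in wild type at 42 °C for 30 min (59.7% of all genes called, 1789 of 6070 called lower), with TAH18 (-3.21) and CFD1 (-2.04) among them. At 37 °C for 10 min 7 fell (43.2% of all genes called, of which 48.6% were higher). In double loss 1 rose and 3 fell at 42 °C for 30 min (50.1%, with 1547 genes called higher and 1492 lower). The rise was that of NBP35, a scaffold protein (1.88), which was called at that condition in MSN-deleted cells too (1.83). Of 6 carriers and storage genes 2 rose and 4 fell in wild type at 42 °C for 30 min (59.7%), with MRS4, an iron importer of the inner membrane, higher by 2.53 and its relative MRS3 lower by -1.27.

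Of 9 iron-sensing genes 5 rose and 2 fell in wild type at 42 °C for 30 min (59.7% of all genes called), led by TIS11 (4.47) and CTH1 (2.16), which encode a related pair of proteins that destabilise mRNAs of iron-using proteins, and including the regulator AFT1 (1.56). TIS11 also rose in Hsf1-depleted cells (3.43), MSN-deleted cells (4.70) and double loss (4.70), and AFT1 in MSN-deleted cells (1.82) and double loss (1.60). No gene of any of the 6 lists was called between states at 25 °C.

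**Figure D5:**
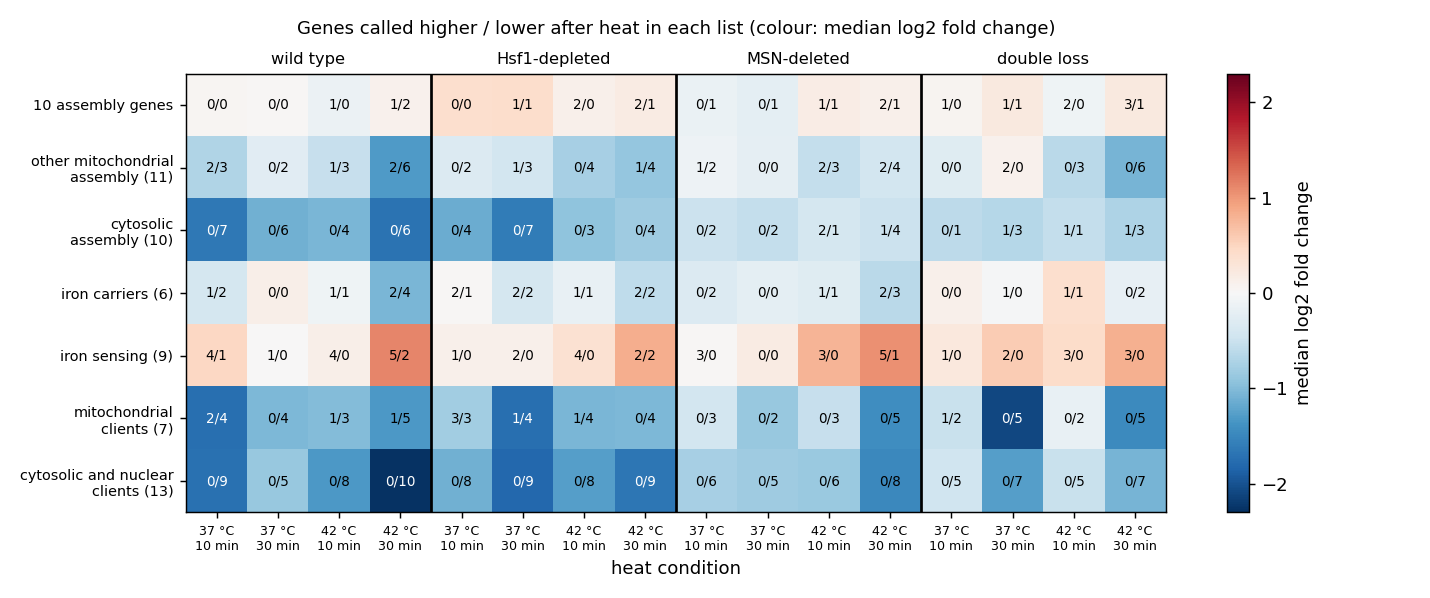
Number of genes called higher and lower after heat in the 10 assembly genes and 6 further lists, for each state and heat condition, with the number of listed genes in brackets and colour for the median log2 fold change. The 10 assembly genes keep medians near 0, whereas the lists of iron-sulfur client enzymes and of cytosolic assembly genes lie below 0 in wild type, and iron sensing lies above 0 at 42 °C for 30 min.

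For each assembly gene the gene most like it was sought by Pearson's r of mean log2 CPM over the 20 groups, among 4660 well-measured genes, as a description in which the points share libraries and scaling. ISA1 was most like FLC1 (0.87), IMA5 (0.83) and BRR6 (0.83), ISU1 like CIT2 (0.94), and ISU2 like SUR7 (0.95). JAC1 was most like MET4 (0.92), YFH1 like ANR2 (0.93), NFS1 like RPO21 (0.90) and SSQ1 like GLC7 (0.87). ISA2 was most like MRP49 (0.93), IBA57 like TCM62 (0.85) and GRX5 like OXP1 (0.71). No assembly gene was among the 3 genes most like any other of the 10, and the highest r between a pair of them was 0.80, for ISA2 and IBA57.

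The authors' deposited table of heat responses holds all 160 pairs of an assembly gene and a condition. It calls 18 higher and 8 lower by the same thresholds, of which 25 were also called here, and its log2 fold changes differ from those given here by at most 0.088.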

How the data were processed

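Whole-number read counts per gene for 60 libraries were deposited by the authors. Per the submitters' processing notes the tools were bcl2fastq 1.8.4, featureCounts 2.0.0, DESeq and DESeq2 1.28.1 with genome build R64, and the column headers of the count tables name ContextMap alignments of trimmed reads. How reads were counted, strand included, is not given in the sources used here. Separately, the authors' deposited table of heat responses holds log2 fold changes and adjusted p-values and was used only for the comparison stated.

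Counts were fitted with edgeR 4.0.16 in R 4.3.3 (TMM scaling, filterByExpr, 1 mean per group over 60 libraries, quasi-likelihood F-tests). The filter kept 6070 features and removed 1056, and the biological coefficient of variation was 0.276. Each of 73 contrasts was adjusted over all genes by Benjamini-Hochberg, with the call thresholds given above. Standard errors were taken as the fold change over the square root of F. CPM values use TMM-scaled totals. Comparisons against wild type share its libraries. Positions came from R64, matched by locus tag, with upstream windows of 300 bases before the coding start. The bases nearest the coding start are not printed. Alternatives included DESeq2 1.42.0, other scalings, no filter, library sets, a replicate block and leaving out libraries. Python 3.11.15 with pandas 2.3.3, Biopython 1.88 and matplotlib 3.10.9 was used for tables, sequences and figures.

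The fit was tested on simulated counts for 5929 genes, with 100 genes changed by 1.5 and 100 by 3 on the log2 scale. For the heat response of wild type at 42 °C for 10 min it recovered 76 and 100 of them with 5 false calls, and for the Hsf1-depleted minus wild-type response at 42 °C for 10 min 53 and 92 with 8 false calls, among 5729 unchanged genes. The simulation changed only the wild-type group at 42 °C for 10 min and drew libraries independently. It therefore does not test the scaling where many genes change, nor deviations shared by the libraries of a set.

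The 10 genes, the other lists, the motifs and the tests were chosen with earlier results of these data known. Named genes were the 10, HSF1, MSN2 and MSN4, the 3 genes most like each of the 10, and up to 4 called genes per list and comparison with the largest change, and others were named after their values were seen (TPO1, HSP104, ATE1, and, where outside that rule, single members of the other lists). No pair of libraries of the same group agreed within sampling noise (chi-square per degree of freedom 8.92 to 228), and none was merged. Pairs from different groups were not compared in this way.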

Additional observations from a re-analysis of the deposited data

Results flagged for a closer look

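In 17 cases the heat response of an assembly gene differed between 2 strain states by the interaction test of edgeR described in the report, and 9 of these were for ISA1. For ISA1 the response of Hsf1-depleted cells exceeded that of wild type by 1.36 (log2) at 37 °C for 10 min, 2.15 at 42 °C for 10 min and 1.66 at 42 °C for 30 min. The response of double loss exceeded that of wild type by 1.29, 2.53 and 2.08 and that of MSN-deleted cells by 1.67, 1.92 and 1.52 at the same conditions.

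For JAC1 the response at 37 °C for 10 min was lower than in wild type by -1.13 in MSN-deleted cells and by -1.19 in double loss. For ISU2 it was lower than in wild type by -1.62 in MSN-deleted cells at 42 °C for 30 min, and by -1.54 at 37 °C and -1.08 at 42 °C for 30 min in double loss. ISU2 in double loss was also lower than in MSN-deleted cells by -1.25 at 37 °C for 30 min. For ISU1 the response of double loss exceeded that of wild type by 1.08 at 37 °C for 10 min, and for YFH1 by 1.62 at 42 °C for 30 min. Both of these calls ended when certain single libraries were left out. The ISU1 call ended also with the size factors of DESeq2, with no filter and with the compared libraries fitted alone. Comparisons against wild type share its libraries, and the cause of these differences was not tested.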

How the results depend on the processing

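No call of an assembly gene reversed under any alternative. Of 27, 23, 17 and 23 calls (heat responses, strain states, differences between responses, times and temperatures within a state), 26, 23, 17 and 20 remained with DESeq2, 21, 18, 12 and 22 with library totals alone, and 22, 22, 15 and 18 without the 5 libraries farthest from their groups, a choice made after seeing the data. Leaving out 1 library ended 10, 7, 6 and 7 of them. Same-numbered replicates did not deviate together (mean r of 0.038 and 0.013 in the 2 backgrounds), whereas libraries of one set did in part (mean r of 0.145 and 0.329). With the set as a term all 27, 23, 17 and 23 calls remained, and among differences between responses 13 tests of the assembly genes and 6919 of all genes were higher. With the replicate number as a block 26, 23, 17 and 23 calls remained, and the call lost was ISU2 in MSN-deleted cells at 37 °C for 30 min (-0.99).

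With no minimum fold change, 40 higher and 19 lower calls were made among heat responses of the assembly genes, 34 and 12 among strain states and 28 and 23 within states. Over all genes, 17968 were then higher between states and 18061 lower within states. With library totals alone, under which the median over all genes lay between -0.59 and 0.45 in the heat responses (TMM -0.05 to 0.09), the assembly genes gave 42 higher and 2 lower calls between states and 23 and 1 between responses. All genes gave 23754 higher and 7806 lower between states (11494 and 12077 with TMM) and 10777 and 4192 between responses (4868 and 7099 with TMM). At an adjusted p under 0.01, 2867 genes were higher between responses.

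Leaving out each library in turn gave 16 to 20 higher and 8 to 12 lower calls of assembly genes among heat responses, 15 to 18 and 6 to 9 between states, 9 to 12 and 4 to 7 between responses, and 13 to 15 and 6 to 10 within states. For all genes the ranges were 18313 to 18854 and 17319 to 17970, 10480 to 11898 and 11593 to 12540, 4191 to 6098 and 6316 to 7873, and 12722 to 13522 and 11437 to 12246. Depth limits YFH1 and SSQ1 most, which had as few as 30 and 36 counts in a library.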

Other observations

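Genes of enzymes that carry iron-sulfur clusters are described here as lists chosen with results known, and no count is set apart from genes at large by a test. In wild type at 42 °C for 30 min, 10 of 13 cytosolic and nuclear client genes fell and none rose (median log2 fold change -2.27, beside -0.04 for all genes), and 59.7% of all genes were called in either direction (1789 of 6070 called lower). The log2 fold changes were -5.76 for RLI1, a ribosome recycling factor, -5.12 for ELP3, a subunit of Elongator, -5.05 for TYW1, a tRNA-modifying enzyme, and -4.76 for DPH1, which acts in diphthamide synthesis. In Hsf1-depleted, MSN-deleted and double-loss cells 9, 8 and 7 of the 13 fell at this condition and none rose, where 57%, 49.5% and 50.1% of all genes were called in either direction. Of the 6070 genes, 1651, 1409 and 1492 were called lower there.

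Of 7 mitochondrial client genes 5 fell and 1 rose in wild type at 42 °C for 30 min, again beside 59.7% of all genes called. ILV3, a dehydratase of branched-chain amino acid synthesis, changed by -6.52, and BIO2, biotin synthase, by -3.32. ACO1, aconitase, fell by 1.34, and SDH2, a subunit of succinate dehydrogenase, rose by 1.27.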
